A study of Mus musculus with 2 samples.

Results

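Interferon-stimulated genes are the genes that cells switch on when an interferon binds its receptor. A list of 39 of them was read by gene symbol from the gene tables of 2 single-cell libraries of mouse mammary gland, and 38 of the 39 symbols matched 1 of the 31053 gene rows; Mx2 matched none and is not analysed here. The list holds 28 genes called type I-like below, 27 of them matched, because they are best known as targets of interferons alpha and beta, and 11 called gamma-like because they are best known as targets of interferon gamma. The 2 names are labels for gene lists and say nothing about which interferon, if any, reached these cells.

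Both libraries came from C57BL/6 mice and were made with the 10x Genomics 3′ chemistry, which counts 1 tag (a unique molecular identifier, UMI) per captured poly(A) RNA near its 3′ end. The labels give a mammary gland source and a sort on the surface proteins CD24 (high) and CD29 (positive), which enriches basal epithelial cells, the contractile and stem-cell-bearing outer layer of the mammary ducts. One library is labelled WT, and the other is labelled Fgd5-ko, with a title that calls it a conditional knockout; Fgd5 encodes an exchange factor that activates the small GTPase Cdc42. Both titles also carry a P4, which the labels do not explain. The sources used here do not give age, the number of animals, the Cre driver or the deleted part of Fgd5.

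With 1 library a group there is no replicate check and no test. Every interval below is an exact 95% interval for counting error alone, and every ratio sets one library against the other, with all that may differ between them.

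Type I interferons act through IFNAR1 and IFNAR2 and the kinases TYK2 and JAK1, which switch on a complex that holds STAT2 and IRF9; that complex binds the interferon-stimulated response element (ISRE). Interferon gamma acts through IFNGR1 and IFNGR2 and the kinases JAK1 and JAK2, and its signal ends at the gamma-activated site (GAS). The transcription factor IRF1 made in this first wave then acts on ISRE sequences in turn. The products restrict viruses, coat the vacuoles of intracellular microbes, sense foreign RNA and damp the signal, and many are present at low levels in unstimulated epithelium.

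Promoter sequences of 8 members are shown because both kinds of element can be looked for in them. They are the 150 bases before the annotated start, 5′ to 3′ on the gene's strand, from RefSeq on the build GRCm38.p6. Capitals mark matches, on either strand, to a shortened ISRE core (GAAANNGAA) or to the GAS pattern (TTCNNNGAA), and the 2 patterns may overlap. Ifit1 and Isg15 stand for the type I-like members, and Irf1, Gbp2, Gbp7, Irgm1, Irgm2 and Igtp for the gamma-like members.
Ifit1, chr19:34640739-34640888, plus strand: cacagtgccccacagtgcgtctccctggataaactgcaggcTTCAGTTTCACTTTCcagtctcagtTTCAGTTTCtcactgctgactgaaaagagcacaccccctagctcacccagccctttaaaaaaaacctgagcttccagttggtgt
Isg15, chr4:156200819-156200968, minus strand: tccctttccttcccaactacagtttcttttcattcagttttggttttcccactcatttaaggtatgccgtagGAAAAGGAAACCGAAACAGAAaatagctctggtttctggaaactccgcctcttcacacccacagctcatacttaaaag
Irf1, chr11:53769864-53770013, plus strand: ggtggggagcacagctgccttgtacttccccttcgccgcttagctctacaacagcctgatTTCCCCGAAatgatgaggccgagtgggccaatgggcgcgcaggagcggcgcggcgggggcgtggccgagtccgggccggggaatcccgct
Gbp2, chr3:142620513-142620662, plus strand: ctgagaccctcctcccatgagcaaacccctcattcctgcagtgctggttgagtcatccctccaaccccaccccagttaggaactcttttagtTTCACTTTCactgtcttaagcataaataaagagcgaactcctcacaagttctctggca
Gbp7, chr3:142530186-142530335, plus strand: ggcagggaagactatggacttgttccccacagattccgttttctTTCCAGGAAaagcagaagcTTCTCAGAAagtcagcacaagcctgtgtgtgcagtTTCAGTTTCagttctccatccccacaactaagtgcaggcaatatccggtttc
Irgm1, chr11:48871421-48871570, minus strand: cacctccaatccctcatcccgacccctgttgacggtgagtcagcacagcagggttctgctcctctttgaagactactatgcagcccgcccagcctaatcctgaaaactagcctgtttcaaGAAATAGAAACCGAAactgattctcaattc
Irgm2, chr11:58214827-58214976, plus strand: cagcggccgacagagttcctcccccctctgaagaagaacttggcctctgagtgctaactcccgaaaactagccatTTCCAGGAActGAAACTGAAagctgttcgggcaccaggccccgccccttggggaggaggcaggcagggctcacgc
Igtp, chr11:58199406-58199555, plus strand: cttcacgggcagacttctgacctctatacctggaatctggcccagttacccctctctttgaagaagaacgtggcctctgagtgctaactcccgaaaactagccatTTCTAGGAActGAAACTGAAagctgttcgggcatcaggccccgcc

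Ifit1 and Isg15 each held 3 matches to the ISRE core and none to the GAS pattern in these bases. Irf1 held 1 GAS match and no ISRE core match, and its table entry lists 2 start windows, of which 1 is printed. Gbp2 held 1 ISRE core match and Irgm1 held 2, and neither held a GAS match. Gbp7 held 2 GAS matches and 1 ISRE core match, and Irgm2 and Igtp, whose upstream stretches are near copies of each other, held 1 of each. Over whole windows of 300 bases (250 before the start to 50 after it), 29 of the 39 members had an entry. The ISRE core was in 12 of 21 type I-like members (57.1%) and 7 of 8 gamma-like members (87.5%), against 9.76% of the 27025 genes in the table. The GAS pattern was in 5 of the 21 (23.8%) and 5 of the 8 (62.5%), against 9.55% of all genes, and both patterns were in 3 and 4 members, against 1.42%. A match is a run of letters and not a shown binding site.

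The deposited cell table listed 6588 and 6064 barcodes of the libraries labelled WT and Fgd5-ko. Listed cells had a median of 4954 and 15712 UMIs, so the library labelled Fgd5-ko was much the deeper. Clustering and fixed marker genes placed 6358 (96.5%) and 6029 (99.4%) of them in basal-like clusters. Unlisted barcodes that passed a quality filter (3490 and 1626) held endothelial-like cells (1281 and 279), fibroblast-like cells (1056 and 584) and smaller classes. Levels are given as CPM, the UMIs of a gene in each 1000000 UMIs of the class, which compare 1 gene between classes and libraries, and not 1 gene with another. The 2 libraries share 34 barcodes. The check of the targeted gene went against the labels: basal-like cells held 30 Fgd5 UMIs (0.841 CPM) in the library labelled WT and 419 (4.05 CPM) in the library labelled Fgd5-ko. A 3′ tag may lie outside the deleted part, so this count checks neither label, and no ratio below is read as an effect of losing Fgd5.

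Across cell classes of the library labelled WT, the 3 epithelial classes (basal-like and the luminal classes) had the low levels of most members, and endothelial-like and pericyte-like cells the high ones. Isg15, a ubiquitin-like protein that is joined to other proteins after interferon, was at 17.7 CPM in the basal-like class of the library labelled WT, 85.8 CPM in the fibroblast-like, 191 CPM in the endothelial-like and 320 CPM in the pericyte-like class. Iigp1, a GTPase that attacks the vacuoles of intracellular parasites, was at 2.77 CPM in basal-like, 69.9 CPM in fibroblast-like, 324 CPM in endothelial-like and 620 CPM in pericyte-like cells of that library. Both genes therefore had the same order of classes there, with wide gaps between neighbours. The luminal classes differed from each other: hormone-sensing luminal-like cells held Iigp1 at 80.4 CPM and Bst2, a membrane protein that tethers budding virus, at 161 CPM. Luminal progenitor and alveolar-like cells held them at 3.05 and 44.2 CPM, but had Rtp4, a chaperone of surface receptors, at 45.7 CPM against 13.7 CPM. The listed luminal classes rest on 53 and 118 cells of the library labelled WT. Ifitm3, which blocks virus entry at membranes, departed from the order: basal-like cells held it at 2748 CPM, above fibroblast-like cells at 2373 CPM and below endothelial-like cells at 3626 CPM.

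**Figure D1:**
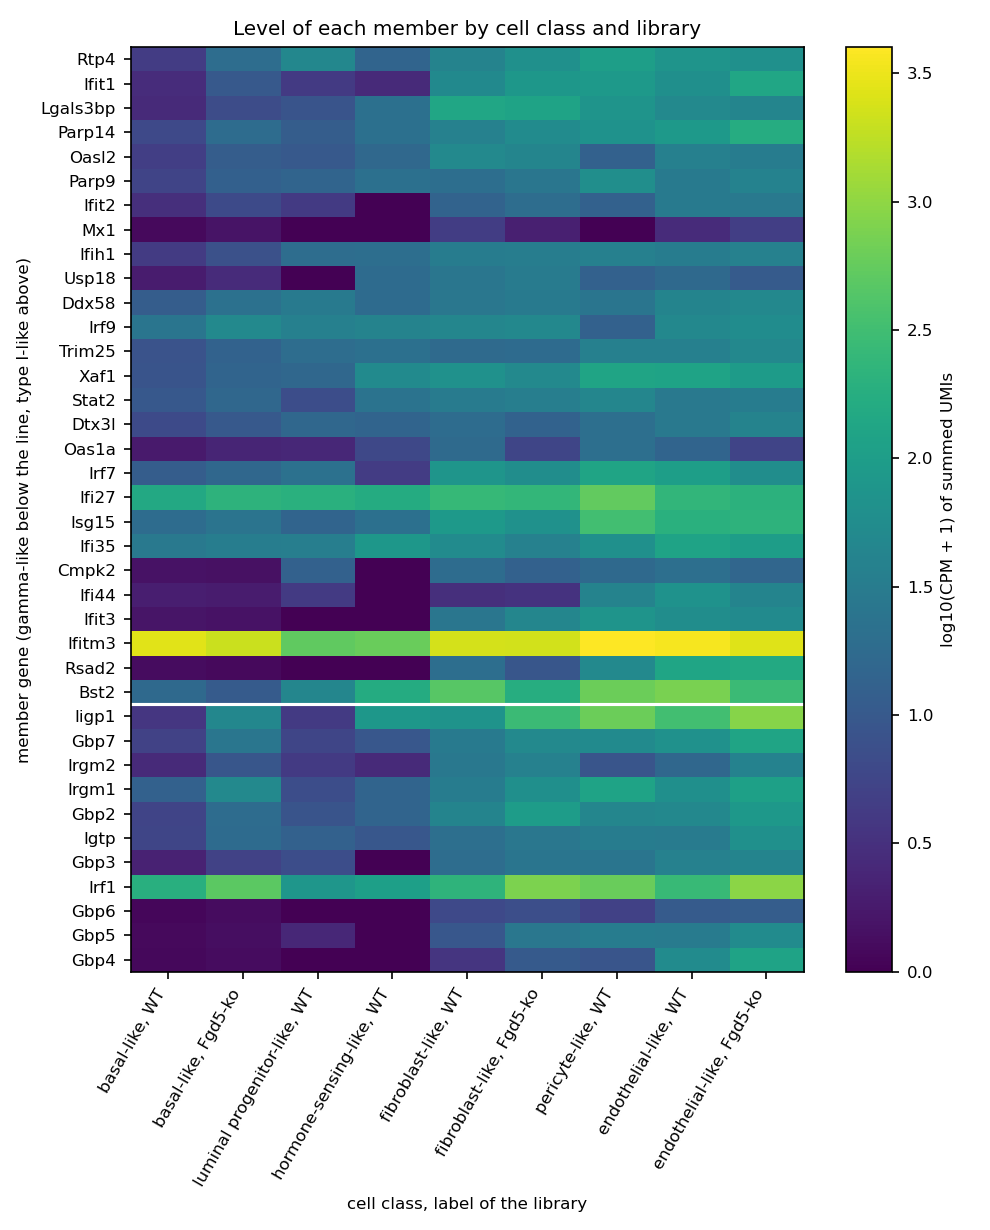
Level of every matched member (rows) as log10(CPM + 1) of summed UMIs on a colour scale from dark (low) to yellow (high), by cell class and label of the library (columns; classes with at least 50 cells in that library). The gamma-like rows below the white line are brighter in the basal-like column labelled Fgd5-ko than in the one labelled WT, and Ifitm3 is the brightest row throughout.

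Summed over a list, 1 gene can hold most of the tags. Ifitm3 made up 89.7% and 80.4% of the type I-like UMIs of basal-like cells in the libraries labelled WT and Fgd5-ko, and Irf1 made up 85.6% and 74.8% of the gamma-like UMIs. The type I-like sum was 3064 and 2568 CPM with Ifitm3, and 316 and 504 CPM without it. So the whole sum was lower in the library labelled Fgd5-ko (log2 ratio -0.25, interval -0.26 to -0.24), while the other 26 members together were higher (0.68, interval 0.65 to 0.71). The gamma-like sum was 221 and 668 CPM (1.60, interval 1.56 to 1.63), and 31.9 and 168 CPM without Irf1 (2.40, interval 2.31 to 2.49). Both gamma-like sums had their higher value in the library labelled Fgd5-ko, and the sum without Irf1 had the larger ratio.

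In basal-like cells, most members had their higher level in the library labelled Fgd5-ko, and the gamma-like members by larger ratios than the type I-like ones. A gene is counted as higher or lower when its CPM differed by at least 1.5-fold between the libraries, among genes with at least 20 UMIs over both. The listed basal-like cells of the 2 libraries sit in nearly separate clusters, and 1 of these clusters has at least 50 cells of both (84 and 317), so state and library cannot be told apart over the whole class. Of 27 type I-like members, 17 were higher, 1 was lower and 9 lay between, with a median log2 ratio of 0.79. Of the 11 gamma-like members 11 were higher, with a median of 1.89. Over all 15060 genes measured the median was 0.23, and 26.9% were higher and 10.5% lower, which is the background for these counts. The split depends on scaling: median ratio scaling shifts every log2 ratio down by 0.23 and gives 17.2% higher and 16.2% lower over all genes, and TMM scaling (0.17) gives 19.2% and 14.4%. Under these scalings 12 and 15 type I-like members and 9 and 9 gamma-like members stayed past the 1.5-fold limit upward.

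**Figure D2:**
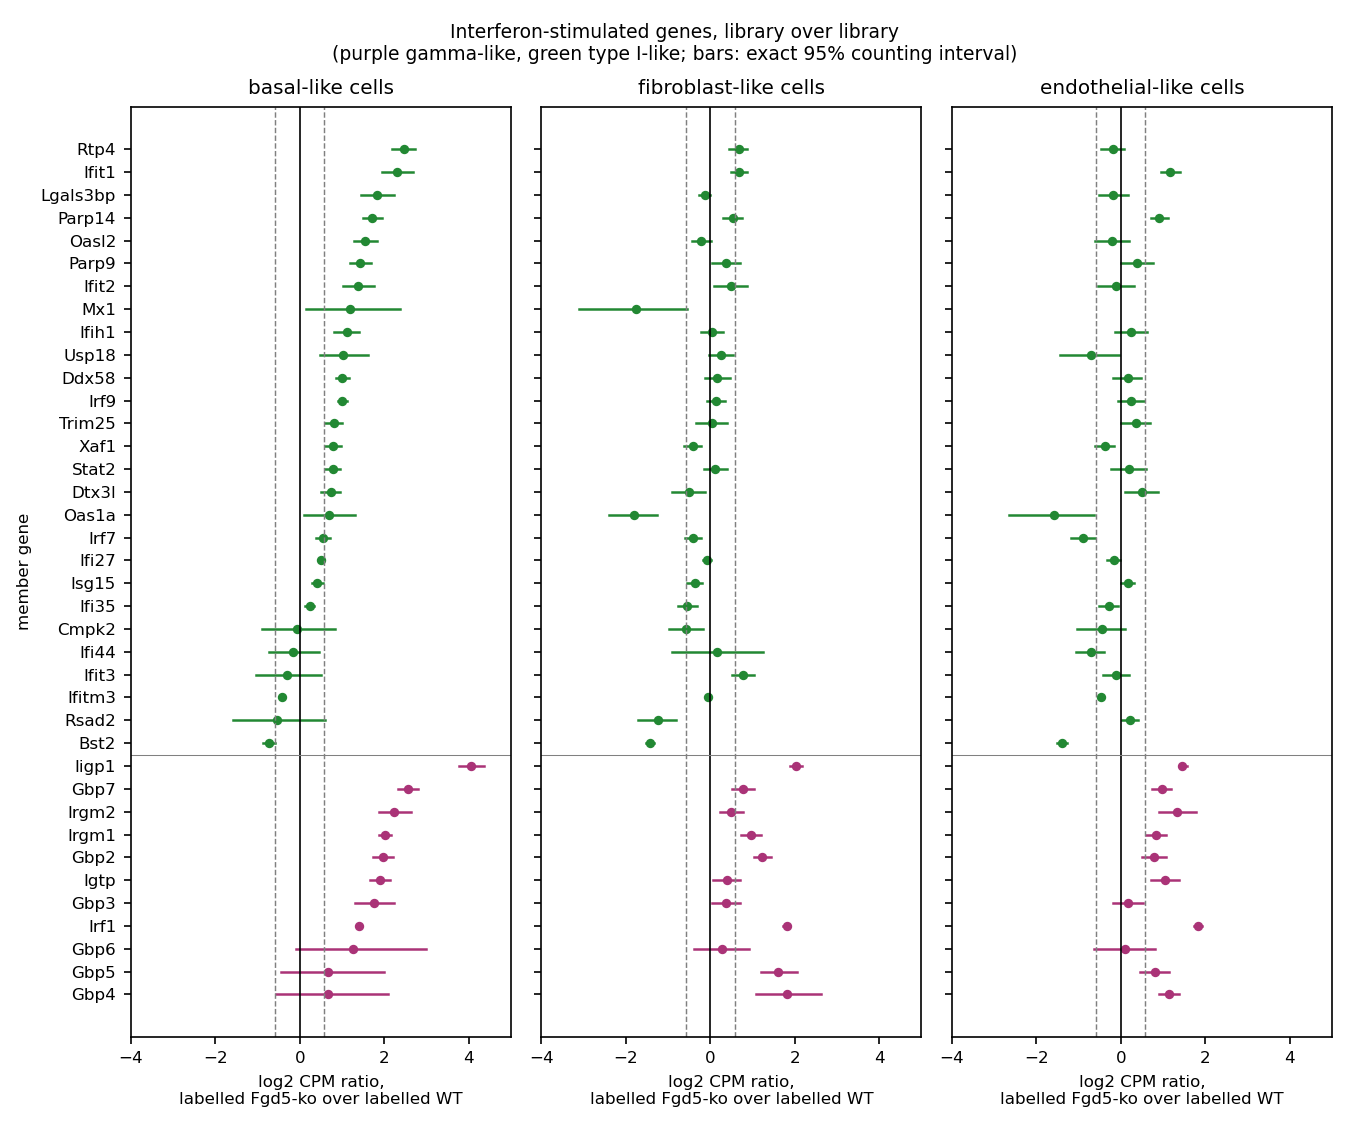
Log2 CPM ratio of each measured member, library labelled Fgd5-ko over library labelled WT, in basal-like, fibroblast-like and endothelial-like cells (panels); green points are type I-like and purple points gamma-like members, bars are exact 95% counting intervals and dashed lines mark 1.5-fold. In basal-like cells the gamma-like members lie from 0.66 to 4.05, and the type I-like members from -0.73 to 2.46.

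Among the gamma-like members, the immunity-related GTPases and guanylate-binding proteins, which act on the membranes of microbe-holding vacuoles, were at their lowest in the library labelled WT. Iigp1 counted 99 and 4769 UMIs in the libraries labelled WT and Fgd5-ko, 2.77 and 46.1 CPM, the largest ratio of any member (log2 4.05, interval 3.77 to 4.36). Irgm1, a regulator of the other GTPases of its family, was at 12.2 and 49.4 CPM (2.01, interval 1.87 to 2.16). Irgm2 was at 1.71 and 8.09 CPM (2.24, interval 1.87 to 2.64). Igtp was at 4.68 and 17.3 CPM (1.89, interval 1.66 to 2.13). Igtp and Irgm2 have near-identical stretches, and the sources used here do not say how tags that fit both were counted, so each of their values is uncertain in itself.

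Gbp7 had the highest ratio of the guanylate-binding proteins, at 4.20 and 24.8 CPM (2.56, interval 2.32 to 2.81). Gbp2 was at 4.48 and 17.6 CPM (1.97, interval 1.74 to 2.21) and Gbp3 at 1.23 and 4.17 CPM (1.76, interval 1.31 to 2.24). Their intervals lie well above the median of all genes. Gbp4, Gbp5 and Gbp6 were nearly silent, with 7 and 32, 8 and 37, and 5 and 35 UMIs. Their log2 ratios of 0.66, 0.67 and 1.27 have intervals that reach below 0, so a difference was not detectable at this depth although the ratios count as higher. Gbp2, Gbp4 and Gbp6 also have close paralogs.

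Irf1, the transcription factor of the gamma-like list, was at 189 and 500 CPM (6757 and 51734 UMIs; log2 1.40, interval 1.36 to 1.44). Irf1 is also an immediate early gene that cell handling can induce. A sum of 7 such genes picked after their values were seen (Fos, Fosb, Jun, Junb, Egr1, Atf3 and Ier2) was at 14537 and 28228 CPM in basal-like cells of the libraries labelled WT and Fgd5-ko (0.96). The same sum was 10427 and 20927 CPM in endothelial-like cells and 15333 and 32441 CPM in fibroblast-like cells. The early genes thus moved the same way as Irf1 in all 3 classes, and their part in the gamma-like ratios was not tested.

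Across basal-like clusters the early genes and the other gamma-like members had different orders. In the library labelled Fgd5-ko, cluster 17 had the highest early sum (45162 CPM) and the lowest sum of the 10 gamma-like members other than Irf1 (66.7 CPM), with Irf1 at 579 CPM. Cluster 14 of that library had an early sum of 23293 CPM, Irf1 at 538 CPM and the highest sum of the other gamma-like members (292 CPM). Irf1 was thus alike in the 2 clusters, while the other members differed. Iigp1 was among the leading genes of cluster 14, and the clustering did not leave out members. Cluster 18, with the fewest early tags of that library (7588 CPM), had Irf1 at 87.0 CPM and the other gamma-like members at 77.2 CPM. In the library labelled WT, the 9 basal-like clusters of at least 50 cells had the other gamma-like members between 18.9 and 70.2 CPM while their early sums ran from 3938 to 21525 CPM.

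**Figure D3:**
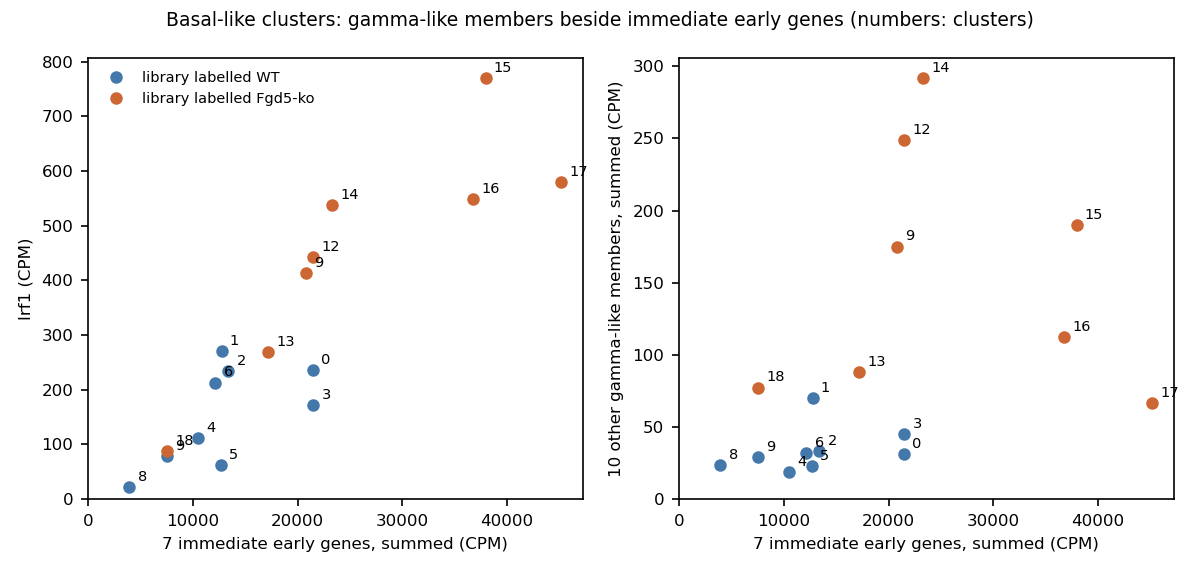
Each point is a numbered basal-like cluster in 1 library (blue, labelled WT; orange, labelled Fgd5-ko): summed CPM of 7 immediate early genes (x axis) against the CPM of Irf1 (left) and the summed CPM of the 10 other gamma-like members (right). The clusters of the library labelled Fgd5-ko reach 292 CPM for the other gamma-like members, and those of the library labelled WT 70.2 CPM.

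Among type I-like transcription factors and signal carriers, Irf9 and Stat2 of the ISRE-binding complex were higher. Irf9, its DNA-binding subunit, was at 24.2 and 48.8 CPM in the libraries labelled WT and Fgd5-ko (1.01, interval 0.91 to 1.12). Stat2 was at 8.85 and 15.2 CPM (0.78, interval 0.61 to 0.96), but at 0.38 in cells of 4000 to 12000 UMIs and 0.55 under median ratio scaling. Irf7, which amplifies interferon production, was at 10.4 and 15.1 CPM (0.54, interval 0.38 to 0.71), within the 1.5-fold limit. Usp18, the protease that removes ISG15 and blocks the receptor, had only 31 and 183 UMIs (1.03, interval 0.47 to 1.62).

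The RNA sensors and their partners were higher. Ddx58, which encodes RIG-I, was at 10.6 and 21.3 CPM (1.01, interval 0.85 to 1.17), and Ifih1, which encodes MDA5, at 3.17 and 6.84 CPM (1.11, interval 0.82 to 1.41). Trim25, a ubiquitin ligase that acts with RIG-I, was at 7.23 and 12.6 CPM (0.80). The ADP-ribosyltransferases Parp14 (5.30 and 17.5 CPM, 1.72) and Parp9 (4.40 and 11.9 CPM, 1.43) and Dtx3l, the partner ligase of PARP9 (5.44 and 8.99 CPM, 0.73), were higher too. All 6 passed 1.5-fold, though under median ratio scaling Dtx3l and Trim25 fell short of it, and under TMM scaling Dtx3l (0.55).

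The antiviral effectors spread from the highest ratios to the lowest. Rtp4 was at 3.33 and 18.4 CPM (2.46, interval 2.19 to 2.74), the largest type I-like ratio. Ifit1, which binds viral RNA caps, was at 1.85 and 9.11 CPM (2.30, interval 1.94 to 2.68). Of the 943 Ifit1 UMIs in the library labelled Fgd5-ko, cluster 14 held 641 (26.5 CPM). The other clusters of at least 50 cells of that library had Ifit1 at 2.09 to 6.89 CPM. Ifit2, a relative of Ifit1, was at 2.05 and 5.35 CPM (1.39). Their neighbour Ifit3 counted 22 and 52 UMIs (-0.29, interval -1.04 to 0.50), so no difference was detectable at its depth; Ifit3 and its copy Ifit3b may split their tags. Lgals3bp, a secreted glycoprotein (1.83), Oasl2, of the oligoadenylate synthetase family (1.55), Xaf1, a partner of an apoptosis inhibitor (0.79), and Mx1 (9 and 59 UMIs; 1.18, interval 0.16 to 2.38) were higher. Oas1a, an enzyme that makes oligoadenylate, counted 30 and 140 UMIs (0.69, interval 0.11 to 1.31) and has close copies.

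Some of the best-known type I targets were not higher. Isg15 was at 17.7 and 23.6 CPM (0.42, interval 0.29 to 0.55), Ifi27 at 150 and 212 CPM (0.50) and Ifi35 at 27.2 and 32.1 CPM (0.24), all within 1.5-fold. Rsad2, which encodes viperin, had 12 and 24 UMIs (-0.54, interval -1.59 to 0.60), Cmpk2 17 and 47 (-0.07) and Ifi44 36 and 94 (-0.15, interval -0.72 to 0.45). For these 3 genes no difference was detectable at this depth. Bst2 was the 1 member lower past the limit, at 16.3 and 9.88 CPM (-0.73, interval -0.87 to -0.58). Ifitm3, at 2748 and 2064 CPM (-0.41, interval -0.42 to -0.40), was lower within the limit.

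Depth and other cell types were read beside these ratios. In basal-like cells of 4000 to 12000 UMIs (4453 and 1572 cells of the libraries labelled WT and Fgd5-ko), the median was 0.72 for type I-like and 1.52 for gamma-like members. Iigp1 stood at 3.00 in them. In the library labelled Fgd5-ko, cells of cluster 17 had a median of 10182 UMIs and those of cluster 14 a median of 18472. The window therefore changes the mix of clusters together with depth, and the 2 cannot be told apart. Myeloid markers summed to 14.8 and 3.99 CPM in basal-like cells of the libraries labelled WT and Fgd5-ko, T and NK cell markers to 21.4 and 21.3 CPM, and B cell markers to 1.04 and 0.387 CPM. None of the 3 was higher in the library labelled Fgd5-ko. Without any cell holding an immune marker UMI, the medians were 0.79 and 1.90. Endothelial markers summed to 15.7 and 9.80 CPM, and fibroblast markers to 186 and 241 CPM. Cluster 14, which holds 1237 cells of the library labelled Fgd5-ko and 16 of the other, had the fibroblast gene Dcn among its 10 leading genes. Without the clusters led by a marker of another class, an alternative chosen after seeing the data, the medians were 0.76 and 1.72, and Iigp1 stood at 3.72.

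Free RNA from lysed cells puts tags of one class into droplets of another. In the library labelled WT, basal-like cells held the 8 endothelial markers, summed, at 0.260% of their level in endothelial-like cells, and Iigp1 at 0.855% (interval 0.691 to 1.05). The other library had the markers at 0.130% and Iigp1 at 5.15% (interval 4.90 to 5.42). Iigp1 was therefore above the markers' share in both libraries, and the gap was wider in the latter. The gamma-like members had a median of 6.49% (0.360 to 71.4) and 19.5% (0.255 to 52.8) of their endothelial-like level. The type I-like members had medians of 9.25% and 19.7%. Against fibroblast-like cells, single fibroblast markers had medians of 0.152% and 0.134% and reached 2.09% and 2.14% (Dcn). The lowest type I-like members were at 1.25% and 1.16% of their fibroblast-like level, and the lowest gamma-like members at 2.64% and 1.38%. Some members lie within the markers' range in either comparison, so the few tags of those in basal-like cells cannot be told apart from free RNA.

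Stromal classes gave the gamma-like members higher and the type I-like members mixed. These classes mix clusters in unlike proportions: 1 fibroblast-like cluster has 380 cells of the library labelled WT and 3 of the other, and another has 0 and 202. In fibroblast-like cells, 7 of 11 gamma-like members were higher and none lower (median 0.96), and of 27 type I-like members 3 were higher and 4 lower (median -0.05). Of all 12313 genes measured there, 17.9% were higher and 13.1% lower, with a median of 0.04. In endothelial-like cells, 9 of 11 gamma-like members were higher and none lower (median 0.97), and of 26 type I-like members 2 were higher and 5 lower (median -0.14). The background there was 19.9% higher and 10.9% lower of 10676 genes, with a median of 0.14.

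Irf1 and Iigp1 were higher in both stromal classes. In fibroblast-like cells Iigp1 was at 69.9 and 285 CPM in the libraries labelled WT and Fgd5-ko (2.03, interval 1.89 to 2.17), and Irf1 at 222 and 778 CPM (1.81, interval 1.73 to 1.89). In endothelial-like cells Irf1 was at 265 and 948 CPM (1.84, interval 1.74 to 1.93), and Iigp1 at 324 and 895 CPM (1.46, interval 1.37 to 1.56). The basal-like ratio of Iigp1 (4.05) was larger than either, from a far lower level. Fibroblast-like cells held Gbp4 at 2.64 and 9.33 CPM (1.82) and endothelial-like cells at 54.5 and 121 CPM (1.15). Gbp5, which shapes coats on microbes and inflammasomes, had ratios of 1.61 and 0.80. So 2 guanylate-binding proteins that were nearly silent in basal-like cells were measured well here.

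Among type I-like members, Ifit1 was higher in both stromal classes, at 49.5 and 79.7 CPM in fibroblast-like cells (0.69) and 60.3 and 136 CPM in endothelial-like cells (1.17, interval 0.95 to 1.40). Bst2 was lower in both, at 465 and 174 CPM (-1.42, interval -1.51 to -1.33) and 749 and 288 CPM (-1.38, interval -1.50 to -1.27), the same side as in basal-like cells. Fibroblast-like cells held Oas1a at 16.4 and 4.66 CPM (-1.81) and endothelial-like cells at 13.3 and 4.47 CPM (-1.57), the other side from basal-like cells. Irf7 was lower in endothelial-like cells, at 105 and 56.9 CPM (-0.89). Other markers moved in these classes. In fibroblast-like cells endothelial markers summed to 95.1 and 18.9 CPM, T and NK cell markers to 2.78 and 18.9 CPM and B cell markers to 1.11 and 10.4 CPM. In endothelial-like cells fibroblast markers summed to 160 and 45.1 CPM. Their part in the ratios was not tested.

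Clusters that both libraries fill narrow the range of cell states compared, but state may still differ between the libraries within them. A finer clustering (resolution 2) had fibroblast-like clusters of 157 and 6 cells and of 13 and 131 cells of the libraries labelled WT and Fgd5-ko. It had a basal-like cluster led by Cenpf with 24 and 342 cells. State and library therefore cannot be fully told apart in shared clusters either. There were 12 clusters with at least 50 cells of each library, 4 of them unnamed. The gamma-like sum was higher in the library labelled Fgd5-ko in 12 of the 12, with log2 ratios from 0.30 to 2.87 and a median of 1.37. Without Irf1 it was higher in 11 of the 12 (-0.09 to 3.31, median 1.17). The exception was unnamed cluster 3 (68 and 53 cells), where Iigp1 was at 186 and 129 CPM (-0.52, interval -0.89 to -0.15), and unnamed cluster 23 (120 and 51 cells) gave 0.13 (interval -0.27 to 0.54). The type I-like sum was higher in 3 of the 12, from -0.59 to 0.53. In the listed basal-like cluster of dividing cells (84 and 317 cells, led by Cenpf and other mitotic genes), the gamma-like sum was 108 and 587 CPM (2.44, interval 2.13 to 2.77), and Iigp1 had 1 and 333 UMIs. In a fibroblast-like cluster of 218 and 189 cells, the gamma-like sum was 544 and 2083 CPM (1.94) and the type I-like sum 3205 and 3418 CPM (0.09). In an endothelial-like cluster of 483 and 106 cells the gamma-like sum was 1133 and 2615 CPM (1.21) and the type I-like sum 6178 and 4109 CPM (-0.59). In these 12 clusters the ratio of the gamma-like sum was above that of the type I-like sum, with both above 0 in 3 of them. The type I-like values depend on a few abundant members. Without Ifitm3, Bst2, Ifi27, Isg15 and Lgals3bp, that sum gave 0.24 in unnamed cluster 0 (-0.36 with them) and 0.36 in unnamed cluster 22 (-0.08). Unnamed clusters 23 and 3 gave 0.17 (-0.47) and -0.55 (-0.36). In cluster 23 its interval (-0.16 to 0.50) overlaps that of the gamma-like sum (0.08 to 0.52). Unlisted basal-like cells (213 and 404) held Iigp1 at 4.10 and 62.9 CPM and Irf1 at 130 and 503 CPM, the same side as the listed basal-like cells.

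**Figure D4:**
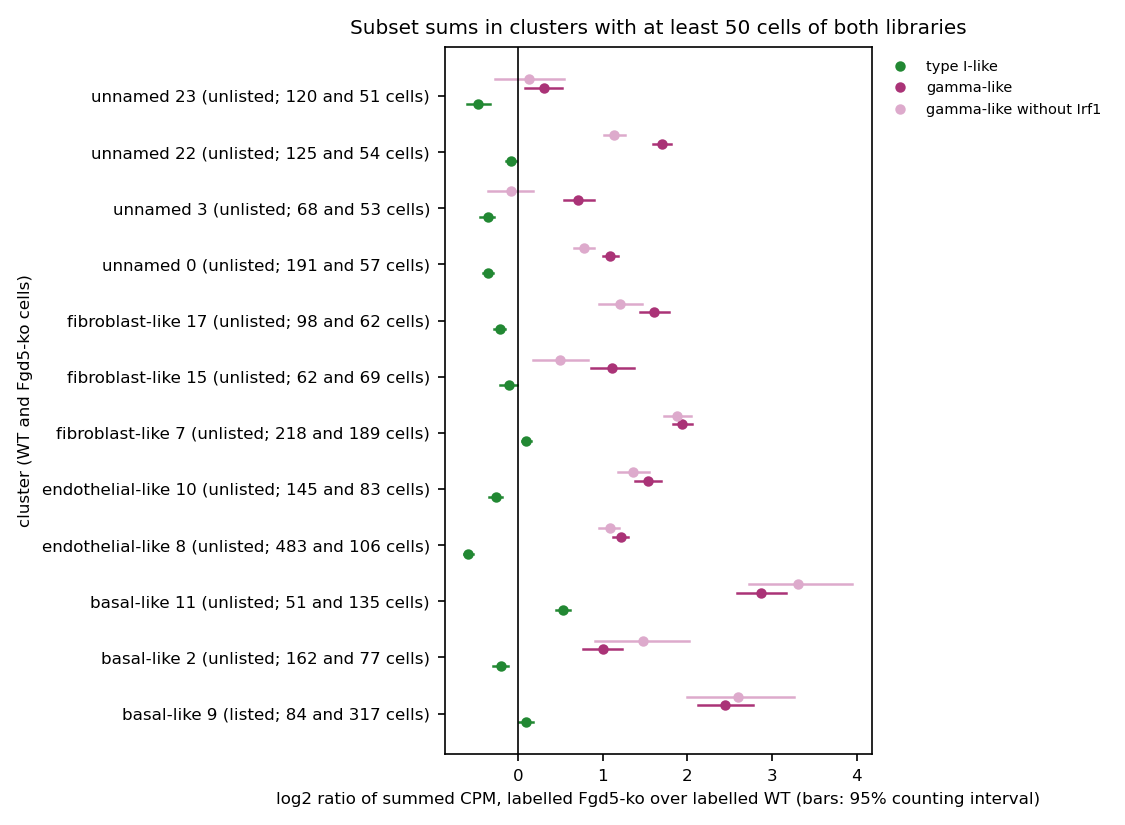
Log2 ratio (library labelled Fgd5-ko over library labelled WT) of the gamma-like sum, the gamma-like sum without Irf1 and the type I-like sum in each of the 12 clusters with at least 50 cells of both libraries (rows), with exact 95% counting intervals. All 12 gamma-like points lie above 0, 1 of the points without Irf1 lies below it, and the type I-like points lie between -0.59 and 0.53.

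The pathway that leads to these genes was read from further lists. Ligand tags were almost absent: of 20 interferon genes, 2 were detected in basal-like cells, Ifnab with 1 UMI in the library labelled WT and Ifnk with 3 UMIs in the library labelled Fgd5-ko. Ifnb1 had 3 UMIs in fibroblast-like cells and 6 in an immune-led unnamed cluster, all in the library labelled WT. Ifng had 3 and 2 UMIs in fibroblast-like cells, and at most 2 a library in the unnamed clusters that held it. Ifnl3 had 1 UMI in hormone-sensing luminal-like cells. No ligand could be compared between libraries at this depth.

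Of 6 receptor genes, 1 was higher in basal-like cells, Ifnlr1, the specific chain of the lambda interferon receptor (3.17 and 7.44 CPM; 1.23, interval 0.95 to 1.53). The others had log2 ratios from 0.08 to 0.49: Ifnar1 0.49, Ifnar2 0.08, Ifngr1 0.35, Ifngr2 0.20 and Il10rb, the shared lambda chain, 0.19. Of 8 signalling genes 4 were higher, with a median of 0.74. Jak1 was at 58.1 and 124 CPM (1.09) and Stat3, the main carrier of interleukin-6 family signals, at 105 and 208 CPM (0.99). Irf8, a factor best known in myeloid cells, was at 0.476 and 5.36 CPM (3.49, interval 2.80 to 4.28), although the myeloid markers had the opposite direction. Irf5 had a ratio of 1.19, and Jak2 (0.44), Irf2 (0.42), Irf3 (0.48) and Tyk2 (-0.09) lay within the limit.

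Of 7 negative regulators 4 were higher, with a median of 0.73. Socs3, the feedback inhibitor of STAT3 signals, was at 1180 and 2413 CPM (1.03), and Cish, a relative that damps STAT5 signals, at 24.3 and 95.7 CPM (1.98). Ptpn2, a phosphatase of JAK and STAT proteins, had a ratio of 0.98 and Pias3 0.73. Socs1, the main inhibitor of interferon receptors, had 0.21 in basal-like cells but 1.28 in fibroblast-like and 0.90 in endothelial-like cells; Pias1 (0.46) and Ptpn6 (-0.09) lay within the limit. Of 10 sensor and adaptor genes measured, 8 were higher, with a median of 1.08. The DNA-sensing pair Mb21d1, which encodes cGAS, and Tmem173, which encodes STING, had ratios of 2.21 and 1.69, the second at 8.71 and 28.1 CPM. Dhx58 (1.58), Zbp1 (1.32), the kinases Tbk1 (1.11) and Ikbke (0.89), Myd88 (1.05) and Ticam1 (0.60) were higher, while Mavs (0.54) and Tlr3 (0.05) were not. Aim2, Tlr7 and Tlr9 had at most 3 UMIs a library.

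Of 38 further interferon-stimulated genes measured in basal-like cells, 23 were higher and 4 lower, with a median of 0.95. The highest were Gbp9 (4 and 129 UMIs; 3.48, interval 2.08 to 5.37), Ifi47, a GTPase of the Iigp1 family (1.71 and 18.8 CPM; 3.46), Ciita, the master factor of MHC class II genes (4 and 96 UMIs; 3.05), and Sp100 (2.16). The lowest were Ifi203 (-1.28, interval -2.18 to -0.37), Ifit3b (-1.24), Slfn2 (-0.84) and Ifi204 (-0.82). The intervals of Slfn2 (-1.91 to 0.28) and Ifi204 (-1.84 to 0.25) include 0, so a difference was not detectable for them although the ratios count as lower. The signalling, regulator, sensor and further lists had shares of higher genes above the 26.9% of all genes, and the receptor list a share below it. Like the members, these lists were chosen with earlier results of these data known, so they give no separate support to the member ratios.

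Single cells were compared at equal depth, after each was thinned to 2000 UMIs, which left 6297 and 6029 basal-like cells. Ifitm3 was found in 97.6% and 95.7% of cells in the libraries labelled WT and Fgd5-ko, Irf1 in 29.0% and 52.4% and Ifi27 in 25.2% and 32.7%. Each of the other 35 members (25 type I-like, 10 gamma-like) was sparse, meaning found in under 10% of cells in both libraries. Among them, Irf9 was in 5.07% and 9.04% of cells, Irgm1 in 1.95% and 7.55%, Iigp1 in 0.508% and 4.86%, and Ifit1 in 0.286% and 1.23%. Isg15 was in 2.92% and 3.63%, and before thinning in 5.83% and 18.7%, so the gap between the libraries was narrower at equal depth.

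At least 2 sparse type I-like members were in 4.56% of cells of the library labelled WT (interval 4.06 to 5.10) and 9.70% of those of the library labelled Fgd5-ko (8.97 to 10.5); without thinning these were 17.8% and 76.7%. At least 2 sparse gamma-like members were in 19 cells (0.302%) and 214 cells (3.55%). At least 1 sparse type I-like member was in 25.9% and 38.7% of cells, and at least 1 sparse gamma-like member in 5.70% and 20.1%. At least 1 sparse member of both subsets was in 1.97% and 9.54% of cells. For scale, at least 2 of the same type I-like members were in 73.4% and 71.2% of endothelial-like cells and 56.7% and 42.3% of fibroblast-like cells. At least 2 gamma-like members were in 27.2% and 53.4% of endothelial-like and 8.24% and 20.4% of fibroblast-like cells. Of cells from the library labelled WT, 0 of 53 listed hormone-sensing luminal-like cells and 0 of 109 luminal progenitor and alveolar-like cells held 2 gamma-like members, which allows shares of up to 5.66% and 2.75% (3 cells of each total). Basal-like cells had the lowest of these type I-like shares in both libraries.

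Within the library labelled Fgd5-ko the share of basal-like cells with 2 type I-like members differed between clusters, from 5.13% in cluster 18 to 13.9% in cluster 14. Cluster 14 also had the highest share with 2 gamma-like members (8.33%), Iigp1 at 106 CPM and Ifit1 at 26.5 CPM. Iigp1 and Ifit1 were among the leading genes of cluster 14, and the clustering did not leave out members. High member levels in a cluster, in either library, therefore cannot be told apart from how its cells were grouped. Cluster 12, of cells with replication-dependent histone tags, had Iigp1 at 101 CPM. Cluster 17 had Iigp1 at 6.47 CPM, and the clusters of at least 50 cells of the library labelled WT had 0 to 4.30 CPM. The few cells that the library labelled WT had in clusters 12 (26 cells) and 14 (16 cells) were higher, with Iigp1 at 34.4 CPM (interval 12.6 to 74.9) and 296 CPM (interval 186 to 449). Those 16 cells held 22 of the 99 Iigp1 UMIs of all basal-like cells in that library. There, clusters of at least 50 cells ranged from 0.877% to 7.14% of cells with 2 type I-like members. Original depth moved with the share in the library labelled Fgd5-ko even after thinning, from 7.43% in the shallowest of 4 groups of cells of equal size to 11.5% in the deepest. The library labelled WT had 5.46% in its shallowest and 3.56% in its deepest group. A finer clustering (resolution 2) placed 21 cells of the library labelled WT and 105 of the other in 1 basal-like cluster. It was led by the members Ifit1, Iigp1, Isg15 and Gbp2.

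Cells that held some sparse members more often held others. To keep the members that choose a cell apart from those read in it, the 25 sparse type I-like members were divided by their place in the list into odd (13) and even (12) members. Cells with at least 2 odd members were set against cells with none. The library labelled WT gave 99 such cells, and 41.4% of them (interval 31.6 to 51.8) held an even member, against 12.3% of the 5326 cells with none. The library labelled Fgd5-ko gave 183 chosen cells, and 42.1% (34.8 to 49.6) held an even member against 21.3%. A sparse gamma-like member was in 22.2% (14.5 to 31.7) of the chosen cells against 5.26% in the library labelled WT, and in 45.9% (38.5 to 53.4) against 18.1% in the library labelled Fgd5-ko. Gamma-like members were thus found more often in chosen cells than in cells with no odd member, in both libraries. Most chosen cells held no sparse gamma-like member. The ratio of chosen to other cells was larger in the library labelled WT, and that difference was not tested.

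Choosing by the even members gave 79 and 191 cells, of which 48.1% and 36.1% held an odd member against 14.4% and 20.9%. Choosing by 2 gamma-like members gave 19 and 214 cells. Of these, 10 of 19 (52.6%, interval 28.9 to 75.6) and 70 of 214 (32.7%, 26.5 to 39.4) held 2 type I-like members, against 4.08% and 7.87% of cells with no gamma-like member. The pattern had the same direction whichever list chose the cells.

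**Figure D5:**
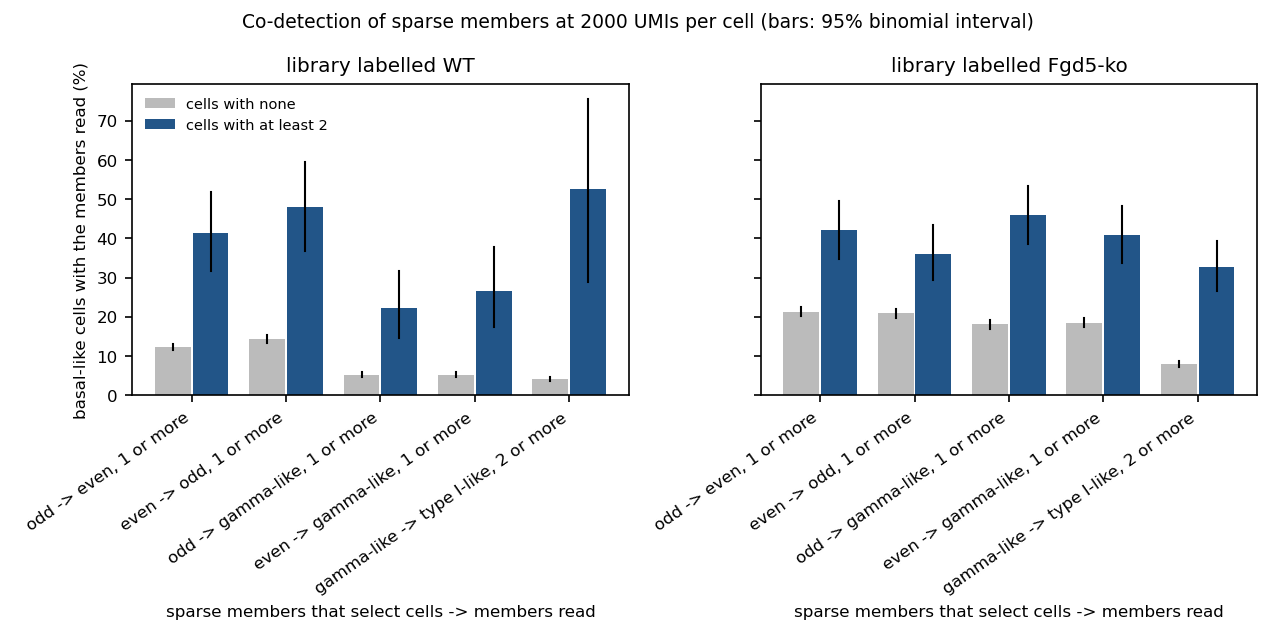
Share of thinned basal-like cells (y axis, %) that hold the members being read, in cells with at least 2 members of the list that chooses (blue) and in cells with none of it (grey), for each library (panels) and each pair of lists (x axis); black lines are exact 95% binomial intervals. In each pair of bars the chosen cells lie above the others, for example at 41.4% against 12.3% for even members in the library labelled WT.

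Member by member, cells with at least 2 other sparse type I-like members were set against cells with none. Isg15, in the library labelled WT, was in 19.3% against 1.87% (log2 3.37, interval 2.82 to 3.90), Ifit1 in 3.17% against 0.128% (4.63) and Usp18 in 2.79% against 0.0642% (5.44). Irf9, found in many cells, had a log2 ratio of shares of 1.09 there, and Ifitm3 of 0.01. Ifit1, in the library labelled Fgd5-ko, was in 5.11% against 0.752% (2.76), Isg15 in 9.34% against 2.64% (1.83) and Iigp1 in 12.1% against 3.73% (1.70, interval 1.27 to 2.12). Trim25 (-0.04, interval -1.04 to 0.84) and Ifi35 (0.12) did not differ detectably there. Nor did Ifit2 (0.35), Lgals3bp (0.25), Stat2 (0.60) and Parp9 (0.61), among others. In the library labelled WT, Dtx3l (-0.07, interval -2.39 to 1.56), Irgm2 (-0.22), Ifi35 (0.60), Ddx58 (0.70) and Stat2 (0.73), among others, had intervals that include 0. The members with high ratios therefore do not stand for all sparse members. Irf1, the abundant gamma-like member, was in 42.2% against 28.1% and 63.8% against 48.7% (0.58 and 0.39).

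A few pairs of genes were also read as counts of cells, and they differed. There were 9 cells of the library labelled WT that held both Isg15 and Ifit1, where the product of their shares gives 0.526 cells, and 13 cells held both Isg15 and Iigp1, where the product gives 0.935. Irf9 and Stat2, partners in 1 complex, were together in 5 cells against 5.88 there, and in 24 cells against 16.2 in the library labelled Fgd5-ko. There were 19 cells of the library labelled Fgd5-ko with both Isg15 and Ifit1, against 2.69. So Isg15 shared cells with Ifit1 in both libraries more than the product of their shares, while Irf9 and Stat2 were near that product in the library labelled WT.

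The cells chosen by 2 odd members were of ordinary depth, with medians of 4887 UMIs against 4988 in the library labelled WT and 17109 against 15492 in the library labelled Fgd5-ko. Their basal markers summed to 18859 CPM against 17593 and 14320 against 14167 CPM. Myeloid markers summed to 10.1 CPM against 16.2 and 2.73 against 4.26 CPM, T and NK cell markers to 25.3 against 23.2 and 21.9 against 20.5 CPM, and no B cell marker was found in chosen cells. The myeloid sums of chosen cells rested on 2 UMIs in the library labelled WT (interval 1.22 to 36.5 CPM). They rested on 1 UMI in the library labelled Fgd5-ko. The T and NK cell sums rested on 5 and 8 UMIs, with 7 of the 8 markers at 0 in chosen cells of each library. Finding no B cell UMI in chosen cells of the library labelled WT allows up to 15.2 CPM, against 1.22 CPM in the others. So few tags cannot show whether immune markers were lower, alike or higher in chosen cells. In the library labelled WT 10 of the 16 cells of cluster 14 were chosen, and in the library labelled Fgd5-ko 66 of its 1237 cells.

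Among genes outside the member list with at least 20 UMIs in the chosen cells, those with the highest ratios included further interferon targets. Ifi27l2a led in the library labelled WT, at 217 CPM against 12.2 (4.15, interval 3.62 to 4.66), followed by Psmb8, an immunoproteasome subunit (1.95), Vcam1, an adhesion molecule (1.95), the chemokine Ccl2 (1.75), Has2 (1.64), Lgals9 (1.35), Supt5 (1.30), Id1 (1.27), Slc50a1 (1.02) and Ptbp2 (0.99). Ifi47 led in the library labelled Fgd5-ko, at 54.6 CPM against 14.4 (1.93), followed by Ifi27l2a (1.71), Hist1h3c (1.53), Fabp4 (1.48), Hist1h2ap (1.47), the MHC class I genes H2-Q7 (1.27) and H2-T22 (1.19), Egr4 (1.26), Hmmr (1.26) and Eif2ak2, which encodes the RNA-activated kinase PKR (1.08). Ifi27l2a was the 1 gene in both groups of 10, and it is a close relative of the member Ifi27, so tags could be split between them.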

How the data were processed

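The authors deposited UMI counts per gene and barcode for 2 libraries, 1 a group (60566053 and 136697801 UMIs over 10735 and 8798 barcodes), and a table of listed cells with plot coordinates, which served here only to name the listed barcodes. Per the submitters' processing notes, Cell Ranger, Seurat 3.0 and the build mm9 were used; the sources used here give no cut-offs, no annotation and no rule for tags that fit several genes. All listed barcodes were kept. Unlisted barcodes were kept at 1000 UMIs, 500 genes and at most 15% mitochondrial UMIs. Listed and unlisted cells were clustered separately with scanpy 1.11.5 (2000 variable genes, 30 components, 15 neighbours, Leiden resolution 1). A class was named from marker lists, by a rule set after seeing the clusters; no doublet caller was run, so doublets remain. Of the listed barcodes, 21 and 27 also occur in the other library.

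UMIs were summed per class and library and scaled to CPM by the class total. Ratios have exact conditional intervals, levels exact Poisson intervals and shares Clopper-Pearson intervals (95%), for counting error only. For levels and shares, a count of 0 was given an upper limit of 3 counts in place of the exact limit. Cells were thinned to 2000 UMIs for shares, leaving out 61 shallower basal-like cells of the library labelled WT. With 1 library a group no p-value was computed. Scripts were tested on simulated data. The members and all lists were chosen with earlier results of these data known. The text names all members, Fgd5, the receptors, signalling genes and negative regulators with 20 UMIs, every ligand and sensor detected, the 4 highest and 4 lowest further targets, the 10 leading genes of chosen cells per library, and markers beside results; 1 gene of the signalling list is not reported here. Alternatives were TMM (edgeR 4.0.16) and median ratio scaling, windows of depth, other cell sets, UMI minimums, thinning depths, another draw and a finer clustering. Promoters came from a RefSeq table on GRCm38.p6, whose coordinates were not compared with the mm9 counts; the table gave no window for 10 members (Usp18, Ifi27, Rtp4, Parp9, Parp14, Mx1, Mx2, Gbp4, Gbp6, Iigp1).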

Additional observations from a re-analysis of the deposited data

Results flagged for a closer look

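Oas1a had a log2 ratio (library labelled Fgd5-ko over library labelled WT) of -1.81 in fibroblast-like cells (interval -2.39 to -1.26) and -1.57 in endothelial-like cells (69 and 11 UMIs), against 0.69 in basal-like cells. It is listed because the direction differed between cell classes, as it did for Usp18, at -0.71 in endothelial-like cells (interval -1.43 to -0.04) against 1.03 in basal-like cells. Mx1 was at -1.75 in fibroblast-like cells (25 and 8 UMIs) against 1.18 in basal-like cells (9 and 59 UMIs). Among the measured members, these are the ones past 1.5-fold in opposite directions in basal-like cells and a stromal class, with counting intervals that leave out 0 in both. In basal-like cells Oas1a came within 1.5-fold under TMM scaling (0.52), median ratio scaling (0.45), with every listed cell included (0.40), and among cells of 4000 to 12000 UMIs (0.41). With 1 library a group the difference between classes was not tested.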

How the results depend on the processing

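No paired analysis was possible because each group has 1 library, and no replicate could be left out. Neither subset median changed its sign, and no member past 1.5-fold in the main setting did. Changes of sign in members within 1.5-fold were not looked for, and shares of cells were only marked as moved or kept. The count of type I-like members lower in basal-like cells (1) was 2 with TMM scaling, 3 with median ratio scaling, 2 over all listed cells, 2 without clusters led by a marker of another class, and 0 with a 2-fold limit, without cells holding 2 sparse members, or between the 25th and 75th percentile of depth. The gamma-like median (1.89) was 1.66 with median ratio scaling and 1.52 in cells of 4000 to 12000 UMIs. The type I-like median (0.79) was 0.99 without cells holding 2 sparse members and 0.55, within 1.5-fold, with median ratio scaling. For single members, 305 values under alternatives kept their side of the 1.5-fold limit, 21 came within it and 7 passed it.

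Shares of cells moved with the thinning depth. At 1500 UMIs, 2.88% and 6.65% of basal-like cells of the libraries labelled WT and Fgd5-ko held 2 type I-like members, and 2.47% of the latter 2 gamma-like members. At 4000 UMIs the type I-like shares were 11.3% and 25.5% and the gamma-like shares 0.622% and 8.70%. Another draw gave 10.9% for type I-like members in the library labelled Fgd5-ko. At least 3 members were in 1.02% and 2.12% (type I-like) and 0.0318% and 0.862% (gamma-like).

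In co-detection at 1500 UMIs, cells with no odd member held an even member in 10.3% and 16.7% and a gamma-like member in 4.66% and 15.7%, and chosen cells a gamma-like member in 13.3% and 34.1%. At 4000 UMIs, cells with no odd member held an even member in 21.7% and 35.6% and a gamma-like member in 9.48% and 29.1%, and chosen cells of the library labelled Fgd5-ko an even member in 54.1%. Another draw gave 20% for even members in unchosen cells of that library. Without immune marker UMIs, 31.9% of chosen cells of the library labelled WT held a gamma-like member. When 1 odd member chose cells, 19.4% and 26.7% held an even and 8.14% and 27.1% a gamma-like member. At resolution 2 the endothelial-like sums of the library labelled WT were 6112 (type I-like) and 982 CPM (gamma-like). Thinning less or asking for fewer members raises a share by construction. Another draw changes only the random thinning, an error that the intervals of the shares leave out. The cause of the other moves was not tested.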
